A study of Mus musculus with 18 samples.

Results

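The 9 genes described here are genes of the liver injury response and target genes of the coactivator YAP: Ccn1, Ccn2, Klf6, F2r, Amotl2, Ankrd1, Sox9, Egr1 and Atf3. The symbols were listed with earlier results of these data known, and each gene's probe set was chosen by its level, as the one with the highest mean intensity over the 18 arrays. They matched 20 of the 45101 probe sets and are 9 of the 18193 genes that the array names. The mean over the 18 arrays of the chosen and the next probe set was 86.5 and 43.8 for Ccn1, 140.7 and 90.3 for Klf6, 842.8 and 364.5 for F2r, 9.4 and 3.7 for Ankrd1, and 17.4 and 14.2 for Sox9. Ccn2, Amotl2, Egr1 and Atf3 had 1 probe set each. All 9 passed the filter on dim values, which asks for a level above the array's 40th percentile (9.5 to 14.2 in intensity) on at least 3 arrays. Ankrd1 passed with 4 arrays, Sox9 with 16, Atf3 with 17 and the other 6 genes with 18.

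Livers of C57BL/6 mice were profiled on Affymetrix mouse expression arrays from total RNA. The mice were wild type (WT, AIM+/+) or lacked AIM (AIM-KO, AIM-/-), the apoptosis inhibitor of macrophage encoded by Cd5l, and ate normal chow (0 weeks of high-fat diet, HFD) or HFD for 12 or 20 weeks, with 3 arrays in each of the 6 groups. The labels speak of biological replicates without saying that each was a separate animal, so p-values measure the spread between these samples. The labels used here state no sex, no age and no account of how the knockout was made, so a longer diet cannot be told apart from an older animal.

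Cd5l measured 702.6 to 1926.8 on the 9 WT arrays and 4 to 23.5 on the 9 AIM-KO arrays; the labels do not say whether its probe set lies outside the deleted part. Xist, expressed from the inactive X chromosome of female cells, was high (2921.6 to 3049.7) on 4 arrays, WT 20 weeks replicate 2 and all 3 of AIM-KO at 20 weeks, against 7.8 to 26.2 on the other 14. Every comparison with AIM-KO at 20 weeks therefore also compares Xist-high with Xist-low arrays, and genotype or diet and Xist cannot be told apart there beyond that 1 WT array. The ratio of the actin 3' to 5' control probe sets, a sign of RNA integrity, reached 4.22 in WT at 20 weeks and 3.79 in WT at 12 weeks, against 2.25 to 3.06 in the other 4 groups. On WT 20 weeks replicates 1, 2 and 3 it was 3.64, 2.54 and 4.22, so the Xist-high array had the lowest ratio of its group. Xist and the actin ratio cannot be told apart within that group. In whole liver RNA, fewer cells of a type and less RNA per cell cannot be told apart. The hepatocyte markers summed to an intensity of at least 43695.4 on every array.

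YAP and its relative TAZ (encoded by Wwtr1) are coactivators that the kinases of the Hippo pathway hold in the cytoplasm; once in the nucleus they bind TEAD factors and switch on genes such as Ccn1, Ccn2, Amotl2 and Ankrd1. In injured liver, YAP activity is known in hepatocytes, bile duct cells and stellate cells, the collagen-producing cells of the organ. A second, faster layer of the injury response consists of immediate-early and stress genes such as Egr1 and Atf3, transcribed within minutes to hours of a stimulus without new protein synthesis.

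Sequence before the start site was compared because YAP switches on its targets through TEAD factors. RefSeq windows on GRCm38.p6 were used for 6 of the 9 genes (Ccn1, Klf6, F2r, Amotl2, Ankrd1 and Atf3). Ccn2, Sox9 and Egr1 were not searched, so the motif counts say nothing about them. The 250 bases before the annotated start were searched on both strands for the TEAD motif GGAATG, the CRE half-site TGACGT that ATF factors bind, the AP-1 motif TGANTCA and the CArG box of SRF. No 2 matches overlapped. GGAATG was in 3 of the 6 windows (Ccn1, Amotl2 and Ankrd1) and in 12.6% of all 32851 windows; TGACGT was in 2 of the 6 (Ccn1 and Atf3) and in 6.47% of all. F2r held 1 AP-1 motif (6.75% of all windows), Klf6 held none of the 4 motifs, and the CArG box (1.47% of all) was in none of the 6. These are matches of letters, not measured binding. The 3 genes with a TEAD motif were on the list as known YAP targets, so their share is a description and not a test. The windows of the 3 genes with a TEAD motif and of Atf3, whose CRE half-site starts 8 bases before its own transcription start, are printed 5′ to 3′ with the matches in capitals. Ccn1 is on the minus strand at chr3:145649986-145650235 (CATTCC, the TEAD motif read on the other strand, then ACGTCA, the CRE half-site read likewise), Amotl2 on the plus strand at chr9:102717554-102717803 (CATTCC), Ankrd1 on the minus strand at chr19:36119845-36120094 (GGAATG at 2 places) and Atf3 on the minus strand at chr1:191183334-191183583 (ACGTCA).
Ccn1: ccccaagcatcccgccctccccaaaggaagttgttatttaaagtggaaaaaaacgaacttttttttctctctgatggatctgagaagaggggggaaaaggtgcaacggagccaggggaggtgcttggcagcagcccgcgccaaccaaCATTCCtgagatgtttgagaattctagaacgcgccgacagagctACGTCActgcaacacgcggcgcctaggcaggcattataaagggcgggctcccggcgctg
Amotl2: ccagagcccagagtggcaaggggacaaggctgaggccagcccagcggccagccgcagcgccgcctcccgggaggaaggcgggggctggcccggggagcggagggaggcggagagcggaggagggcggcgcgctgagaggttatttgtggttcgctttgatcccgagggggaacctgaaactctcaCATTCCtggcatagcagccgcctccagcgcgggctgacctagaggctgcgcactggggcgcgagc
Ankrd1: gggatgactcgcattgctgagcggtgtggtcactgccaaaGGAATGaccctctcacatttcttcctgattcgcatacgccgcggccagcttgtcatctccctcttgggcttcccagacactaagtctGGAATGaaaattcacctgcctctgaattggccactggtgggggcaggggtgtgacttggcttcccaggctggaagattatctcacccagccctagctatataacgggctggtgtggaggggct
Atf3: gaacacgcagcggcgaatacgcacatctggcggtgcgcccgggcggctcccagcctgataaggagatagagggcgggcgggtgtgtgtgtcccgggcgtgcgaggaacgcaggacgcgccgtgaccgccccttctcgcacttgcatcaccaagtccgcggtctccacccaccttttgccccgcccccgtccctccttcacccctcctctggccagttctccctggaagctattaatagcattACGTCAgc

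On HFD all changes of the 9 genes against chow were above 0, called or not, except that of F2r in AIM-KO at 20 weeks. Klf6 was called higher in all 4 comparisons with chow and Ccn2 in 3 of them. Atf3 and Ccn1 were called higher in 2 each (WT at 20 weeks and AIM-KO at 12 weeks). Amotl2, Ankrd1, Sox9 and Egr1 were called in no comparison. Across 12 comparisons, 22 of the 108 tested values passed an adjusted p under 0.05 in limma (adjusted by the Benjamini-Hochberg method over 14694 genes), and they fell on 5 genes: Klf6 in 8 comparisons, Ccn2 in 6, F2r in 4, and Ccn1 and Atf3 in 2 each. All changes below are on the scale of log2(intensity + 3.3), which understates the change of dim genes, and are given with the standard error.

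**Figure D1:**
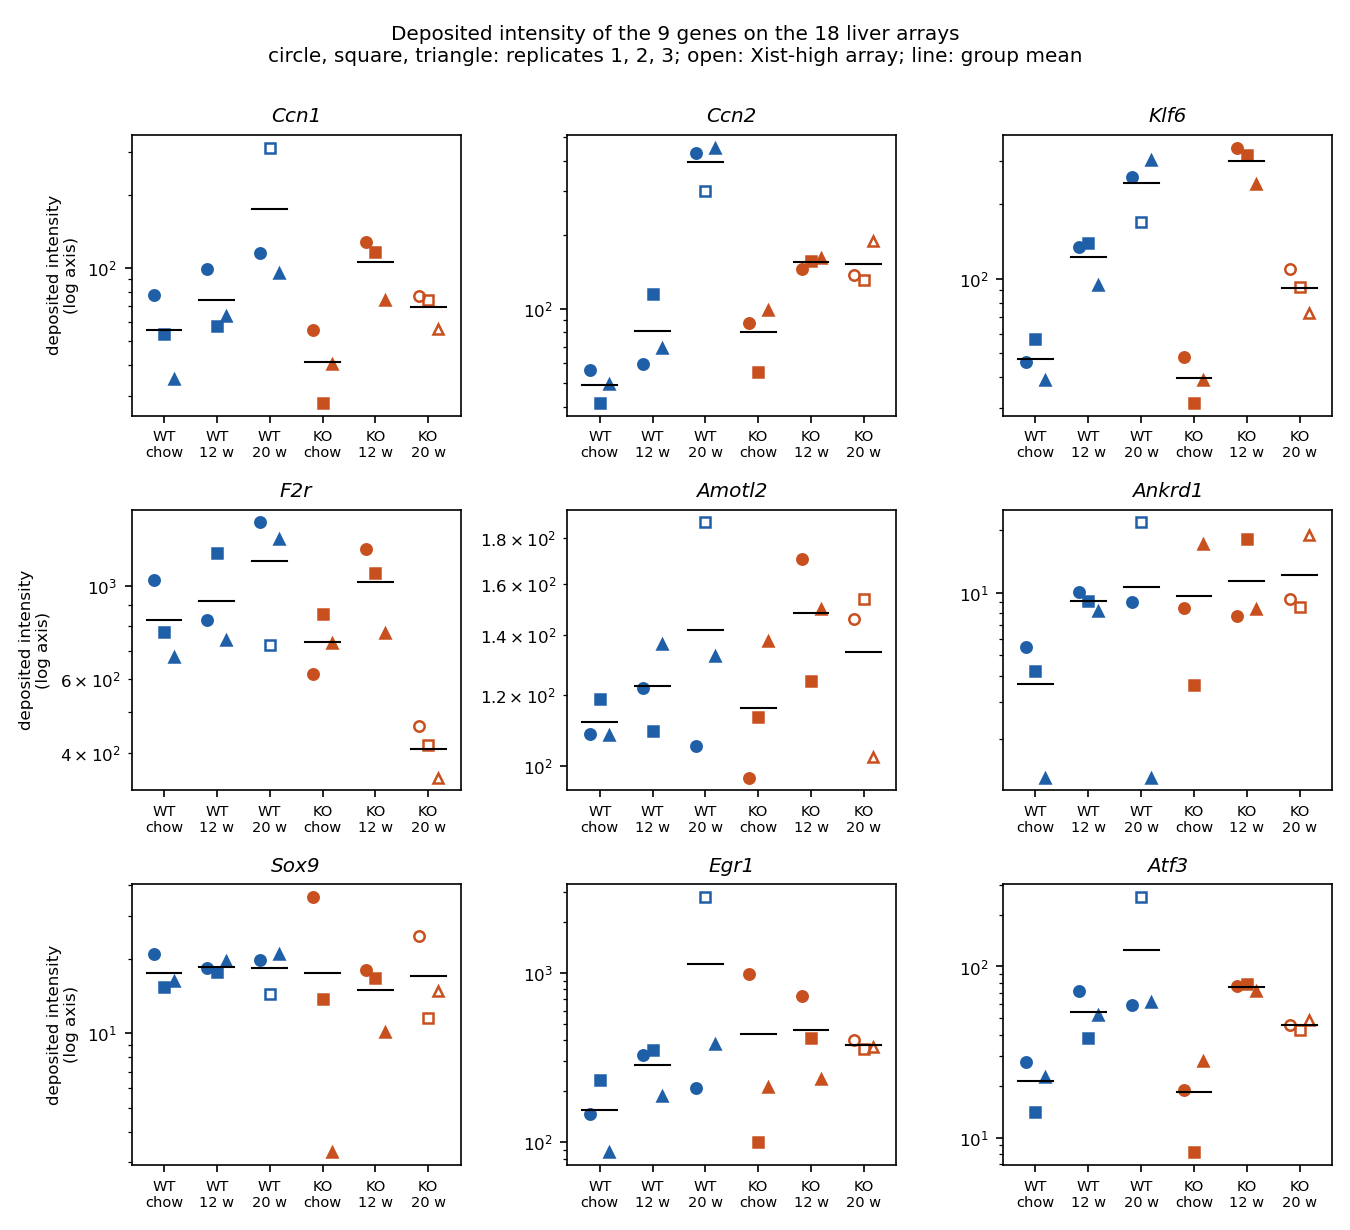
Deposited intensity (log axis) of the 9 genes on each of the 18 arrays, by genotype and weeks of high-fat diet, with KO for AIM-KO. Circles, squares and triangles are replicates 1, 2 and 3, open symbols the 4 Xist-high arrays, and lines the group means; Ccn2 and Klf6 separate most diet groups from chow, while Sox9 lies at a mean of 15 to 18.6 in every group.

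In WT liver at 12 weeks, Klf6 was the 1 gene of the 9 called (rise of 1.31 ± 0.23, adjusted p = 0.002), where 5.14% of all genes tested were called. At 20 weeks 4 of the 9 were called higher (Ccn1, Ccn2, Klf6 and Atf3), where 14.5% of all genes were called. The median change of the 9 was 0.64 at 12 weeks and 1.46 at 20 weeks, against -0.0012 and -0.0081 over all genes tested.

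In AIM-KO liver the same 4 symbols, Ccn1, Ccn2, Klf6 and Atf3, rose at 12 weeks, where 18.1% of all genes were called. For none of the 4 was the 12 week change called different from that in WT (adjusted p = 0.63, 0.84, 0.2 and 0.74 in limma). At 20 weeks Ccn2 and Klf6 rose and F2r fell, so that 3 of the 9 were called against 6.96% of all genes. The median change of the 9 was 0.57 at 12 weeks and 0.43 at 20 weeks, against 0.04 over all genes at both.

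Between the 2 diet durations, 1 of the 9 (Ccn2) rose in WT, where 0.0204% of all genes were called, and 2 of the 9 (Klf6 and F2r) fell in AIM-KO, where 3.44% were. On chow none of the 9 was called between the genotypes in limma, where 0.0272% of all genes were called and 1064 had an unadjusted p under 0.05. Ccn2 alone of the set had such an unadjusted p (0.65 ± 0.24 higher in AIM-KO), and its adjusted p was 0.53. At 12 weeks 1 of the 9 (Klf6) was higher in AIM-KO (0.0749% of all genes called), and at 20 weeks 3 of the 9 (Ccn2, Klf6 and F2r) were lower (0.157%). That last share is 23 genes and rests on single arrays: it was 948 without WT 20 weeks replicate 2 and 2 without WT 20 weeks replicate 1 or 3. No gene of the 9 was called for a difference of the diet effect itself between genotypes, neither at 12 weeks (0.00681% of all genes called, 1387 at an unadjusted p under 0.05) nor at 20 weeks (0% called, 1500 at an unadjusted p under 0.05). Without WT 20 weeks replicate 2, the Xist-high WT array, 331 genes were called for the difference at 20 weeks, among them Ccn2 (-2.19), Klf6 (-1.35) and F2r (-1.56), at adjusted p = 0.0035, 0.028 and 0.012. Leaving that array out, here and for the 948 genes above, sets only Xist-low WT arrays against Xist-high AIM-KO arrays at 20 weeks. Genotype and Xist cannot be told apart in those counts. The step from 12 to 20 weeks did differ between genotypes for 3 of the 9 (Ccn2, Klf6 and F2r), where 1.39% of all genes were called.

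**Figure D2:**
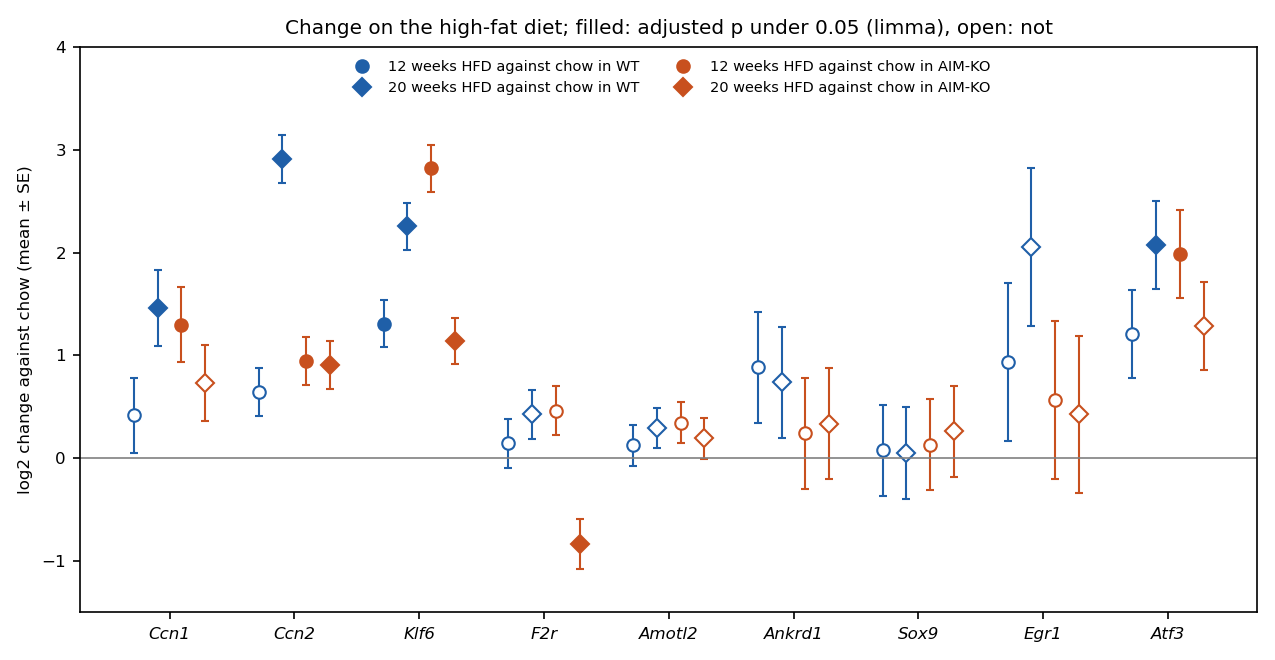
Log2 change against chow of the same genotype (points) with its standard error (bars) for the 9 genes, at 12 weeks (circles) and 20 weeks (diamonds), blue for WT and orange for AIM-KO. Filled points passed an adjusted p under 0.05 in limma; Ccn2 stands highest in WT at 20 weeks (2.91) and Klf6 in AIM-KO at 12 weeks (2.82), and F2r has the 1 called fall (-0.83).

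Ccn2, a secreted matricellular protein also known as connective tissue growth factor, had the highest change in WT. Its intensity was 56.2, 41.4 and 49.6 on WT chow, 59.6, 114.2 and 69.2 at 12 weeks, and 429.9, 300.8 and 451.1 at 20 weeks. The 20 week arrays all lay above every other array of the series, while the 12 week arrays lay above chow by a margin that did not pass the test (0.64 ± 0.24, adjusted p = 0.13 in limma). Against chow the rise at 20 weeks was 2.91 ± 0.24 (7.52-fold, adjusted p = 3.7e-07), and against 12 weeks it was 2.27 ± 0.24 (4.82-fold, adjusted p = 0.00022). Ccn2 was 1 of 3 genes called for that second step in the whole table.

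In AIM-KO liver, Ccn2 took another course. Its intensity was 87.8, 55.3 and 98.9 on chow, 145.4, 155.8 and 160.8 at 12 weeks, and 136.9, 130.5 and 187.8 at 20 weeks. Both diet groups lay above chow and overlapped each other. Against chow Ccn2 rose by 0.94 ± 0.24 after 12 weeks (adjusted p = 0.0088) and by 0.91 ± 0.24 after 20 (adjusted p = 0.025), and the change between them was -0.04 ± 0.24 (adjusted p = 0.96). Without AIM-KO chow replicate 2, its lowest chow array, neither rise was called (0.70, adjusted p = 0.06, and 0.67, adjusted p = 0.14 in limma), and the rise at 20 weeks was also lost without AIM-KO 20 weeks replicate 1 or 3 (adjusted p = 0.054 and 0.12) and when Xist-high arrays had their own term in the fit, called the Xist term below (1.45, adjusted p = 0.087).

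Ccn1, the other CCN protein of the set and a ligand of integrins, varied more within groups. On WT arrays it measured 77.6, 53.6 and 35.1 on chow, 99.2, 58.0 and 63.6 at 12 weeks, and 115.0, 311.2 and 95.7 at 20 weeks. Replicate 2 at 20 weeks stood far above its 2 fellows, though all 3 lay above chow. The rise at 20 weeks was 1.46 ± 0.37 (adjusted p = 0.012), and without that replicate it was 0.95 (adjusted p = 0.052), without WT chow replicate 3 1.19 (adjusted p = 0.07).

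On AIM-KO arrays Ccn1 measured 55.6, 28.0 and 40.4 on chow, 127.5, 115.9 and 73.9 at 12 weeks, and 76.9, 73.9 and 56.1 at 20 weeks. Its rise at 12 weeks was 1.30 ± 0.37 (adjusted p = 0.019); at 20 weeks the arrays lay above chow and the change of 0.73 ± 0.37 was not called (adjusted p = 0.28). The 12 week call was lost without AIM-KO chow replicate 2 (1.07, adjusted p = 0.093) or AIM-KO 12 weeks replicate 1 or 2 (adjusted p = 0.087 and 0.072). The 3 other probe sets of Ccn1 were not called in either comparison (0.72 to 1.12 in WT at 20 weeks and 0.40 to 0.73 in AIM-KO at 12 weeks), so both calls rest on 1 of its 4 probe sets, of the type (x_at) whose probes can match other transcripts.

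F2r, the receptor that thrombin activates by cleavage, had the 1 called fall against chow. Its intensity was 1029.8, 777.2 and 677.5 on WT chow, 826.8, 1195.4 and 742.5 at 12 weeks and 1415.4, 720.0 and 1293.1 at 20 weeks. These 3 groups overlapped and no change in WT was called (0.15 ± 0.24 at 12 weeks and 0.43 ± 0.24 at 20 weeks, adjusted p = 0.81 and 0.27), but the low array at 20 weeks was the Xist-high replicate 2, and without it the rise was 0.73 and was called (adjusted p = 0.031 in limma). That rise rests on replicates 1 and 3, whose actin ratios were 3.64 and 4.22, against 2.54 on replicate 2.

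AIM-KO arrays gave F2r 615.9, 855.0 and 728.3 on chow, 1226.1, 1071.6 and 769.0 at 12 weeks, and 461.9, 415.8 and 348.6 at 20 weeks. The 20 week arrays were the 3 lowest of the series. F2r fell by 0.83 ± 0.24 against chow (1.78-fold lower, adjusted p = 0.043) and by 1.30 ± 0.24 against 12 weeks (2.46-fold lower, adjusted p = 0.0075). With the Xist term, which rests on WT 20 weeks replicate 2, the change against chow was 0.07 (adjusted p = 0.95) and that against 12 weeks -0.39 (adjusted p = 0.85), and the part of sex in the F2r values was not tested beyond this. The fall against chow was also lost on leaving out any 1 of 5 of the 6 arrays compared (AIM-KO chow replicates 2 and 3 and each array at 20 weeks; adjusted p from 0.069 to 0.16). The second F2r probe set gave -0.92 ± 0.26 against chow (adjusted p = 0.042) and -1.72 ± 0.26 against 12 weeks (adjusted p = 0.0038), and its rise in AIM-KO at 12 weeks passed the test (0.80 ± 0.26, adjusted p = 0.042), where the chosen set gave 0.46 ± 0.24 (adjusted p = 0.21).

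Klf6, a zinc finger transcription factor induced early in activated stellate cells, was called in 8 of the 12 comparisons. WT arrays measured 46.3, 57.4 and 38.9 on chow, 134.2, 140.3 and 94.8 at 12 weeks, and 259.1, 169.9 and 301.3 at 20 weeks. Each group lay apart from the one before it. Klf6 rose over chow by 1.31 ± 0.23 after 12 weeks (2.48-fold, adjusted p = 0.002) and by 2.26 ± 0.23 after 20 (4.78-fold, adjusted p = 3.5e-06), while the change from 12 to 20 weeks was 0.95 ± 0.23 and was not called (adjusted p = 0.19).

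In AIM-KO liver the Klf6 peak came at 12 weeks: 48.3, 31.6 and 39.1 on chow, 338.8, 316.1 and 242.0 at 12 weeks, and 109.5, 92.5 and 72.6 at 20 weeks. The 3 groups did not overlap. Klf6 rose by 2.82 ± 0.23 at 12 weeks (7.05-fold, adjusted p = 4.7e-07) and by 1.14 ± 0.23 at 20 weeks (adjusted p = 0.0043), and it fell by 1.68 ± 0.23 between them (3.20-fold lower, adjusted p = 0.0022). With the Xist term the last change was -0.97 (adjusted p = 0.55). Of its 4 other probe sets, all were called for the rise in AIM-KO at 12 weeks (1.48 to 2.77), and 3 were called for the fall to 20 weeks; the exception was the dimmest set, with a mean of 16.2.

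Atf3, a stress-induced transcription factor of the ATF/CREB family, had the pattern closest to that of Ccn1 (root mean square difference of 0.46 over the 18 arrays, each gene's mean taken off, the smallest of the 36 pairs among the 9). WT arrays measured 27.8, 14.1 and 22.6 on chow, 71.7, 38.4 and 51.7 at 12 weeks, and 59.5, 254.5 and 61.7 at 20 weeks. All HFD arrays lay above chow, and replicate 2 at 20 weeks again stood alone. Atf3 rose by 2.08 ± 0.43 at 20 weeks (adjusted p = 0.003); without that replicate the rise was 1.41 and was still called (adjusted p = 0.0078). At 12 weeks the change was 1.21 ± 0.43 (adjusted p = 0.12).

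On AIM-KO arrays Atf3 measured 18.9, 8.2 and 28.0 on chow, 77.0, 79.3 and 72.3 at 12 weeks and 45.6, 42.5 and 48.8 at 20 weeks. Both diet groups were tight and lay above chow, the 12 week group above the 20 week group. The rise at 12 weeks was 1.99 ± 0.43 (adjusted p = 0.0031), and the change at 20 weeks was 1.29 ± 0.43 (adjusted p = 0.081).

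Egr1, an immediate-early zinc finger factor, had the widest spread within groups, an SD of 1.15 on the log2 scale. WT arrays measured 146.3, 231.6 and 87.1 on chow, 325.6, 349.8 and 186.8 at 12 weeks, and 209.1, 2812.2 and 380.2 at 20 weeks. AIM-KO arrays measured 992.5, 100.5 and 211.4 on chow, 726.5, 411.3 and 235.5 at 12 weeks, and 403.9, 355.5 and 365.1 at 20 weeks. Single arrays carried the high values, and every diet group overlapped chow. The change in WT at 20 weeks was 2.06 ± 0.77 (adjusted p = 0.081, 95% interval 0.45 to 3.67), the smallest adjusted p of Egr1 in the 12 comparisons; without WT 20 weeks replicate 1 it was 2.82 (adjusted p = 0.03), and without replicate 2 it was 0.96 (adjusted p = 0.37).

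Sox9, a transcription factor of bile duct and progenitor cells, was dim, and it spread from 3.3 to 35.7 within AIM-KO chow alone. It measured 14.4 to 21.0 on the 9 WT arrays and 3.3 to 35.7 on the 9 AIM-KO arrays. Its 4 changes against chow ran from 0.05 to 0.26, with 95% intervals that together spanned -0.88 to 1.19, and the smallest adjusted p over all comparisons was 0.82. The changes of its 2 other probe sets were not called against chow either. In AIM-KO at 12 weeks they were 1.08 ± 0.65 for the brighter and 0.32 ± 0.55 for the dimmer (adjusted p = 0.29 and 0.76 in limma).

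Amotl2, an angiomotin family scaffold that binds YAP and restrains it, was expressed at an even level. WT arrays measured 108.5, 118.9 and 108.4 on chow, 122.4, 109.4 and 136.8 at 12 weeks, and 105.4, 187.3 and 132.9 at 20 weeks; AIM-KO arrays measured 97.1, 113.5 and 138.0, then 170.3, 124.5 and 149.9, then 146.2, 153.6 and 102.3. Each diet group overlapped chow of its genotype. The 4 changes against chow ran from 0.13 to 0.35, and their 95% intervals together spanned -0.29 to 0.76. The smallest adjusted p over the 12 comparisons was 0.27.

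Ankrd1, an ankyrin repeat cofactor best known from heart muscle, was near background, at 1.3 to 21.7 on the WT arrays and 3.6 to 18.8 on the AIM-KO arrays. Its changes against chow ran from 0.24 to 0.88, with 95% intervals that together spanned -0.89 to 2.02, and no adjusted p was below 0.41.

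The question of how AIM loss bears on the response was put by the contrasts between genotypes. At 20 weeks limma called Ccn2 (fall of 1.35 ± 0.24 from WT to AIM-KO, adjusted p = 0.03), Klf6 (1.36 ± 0.23, adjusted p = 0.026) and F2r (1.43 ± 0.24, adjusted p = 0.026). For these genes, and for Ccn1 and Atf3, the AIM-KO arrays lay below all WT arrays. The share of all genes that lay apart in this way was not counted. Ccn1 gave -1.11 ± 0.37 (adjusted p = 0.18) and Atf3 -1.06 ± 0.43 (adjusted p = 0.28). Within the Xist-high arrays alone, WT replicate 2 lay above the 3 AIM-KO arrays for all 3 called genes: 300.8 against 130.5 to 187.8 for Ccn2, 169.9 against 72.6 to 109.5 for Klf6, and 720.0 against 348.6 to 461.9 for F2r. That is 1 WT array, and with the Xist term none of the 3 was called (Ccn2 -0.99, Klf6 -0.89 and F2r -0.82; adjusted p = 0.74, 0.75 and 0.86). The calls were also lost with a term for the actin ratio (adjusted p from 0.37 to 0.4) and on leaving out WT 20 weeks replicate 1 or 3 or AIM-KO replicate 2 or 3 (adjusted p from 0.067 to 0.25), and for Ccn2 and F2r also without AIM-KO replicate 1 (adjusted p = 0.1 and 0.059). Without WT 20 weeks replicate 2 they were -1.54 for Ccn2, -1.59 for Klf6 and -1.73 for F2r, all called (adjusted p at most 0.0019). That fit compares only Xist-low WT arrays with only Xist-high AIM-KO arrays, so genotype and Xist cannot be told apart in it. With all arrays kept, the other Klf6 probe sets gave -1.36 to -0.51 and were not called (adjusted p from 0.052 to 0.57 in limma). Nor was the second F2r set (-1.26 ± 0.26, adjusted p = 0.058).

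At 12 weeks, where no array was Xist-high, the order was the other way. AIM-KO arrays lay above all WT arrays for Ccn2, Klf6 and Atf3, a trait not counted over all genes, and limma called Klf6 (1.26 ± 0.23 higher, 2.40-fold, adjusted p = 0.044). Ccn2 gave 0.95 ± 0.24 (adjusted p = 0.17) and Atf3 0.51 ± 0.43 (adjusted p = 0.83). The Klf6 call was lost on leaving out any 1 of 5 of the 6 arrays (WT replicates 2 and 3 and each AIM-KO array; adjusted p from 0.054 to 0.3). It also rests on 1 probe set: the other Klf6 sets gave 0.85 to 1.27 and were not called (adjusted p from 0.1 to 0.25 in limma).

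The step from 12 to 20 weeks was compared between the genotypes. Klf6 went up by 0.95 in WT and down by 1.68 in AIM-KO, a difference of -2.62 ± 0.32 (adjusted p = 0.0013). That difference was called in all 24 alternatives that kept the gene's main probe set or averaged its sets, from -2.86 to -2.15 (-2.15 and adjusted p = 0.029 with the Xist term), and in 3 of its 4 other probe sets. For Ccn2 the steps were 2.27 and -0.04, a difference of -2.31 ± 0.33 (adjusted p = 0.0037; -1.94 and adjusted p = 0.071 with the Xist term). For F2r they were 0.28 and -1.30, a difference of -1.58 ± 0.34 (adjusted p = 0.029), which was not called with the Xist term (-0.97, adjusted p = 0.42), with the actin term (-1.36, adjusted p = 0.071) or on leaving out any 1 of 6 of the 12 arrays (WT 12 weeks replicate 3, AIM-KO 12 weeks replicates 1 and 2, WT 20 weeks replicates 1 and 3, and AIM-KO 20 weeks replicate 3; adjusted p from 0.085 to 0.098). Atf3 and Ccn1 gave -1.57 ± 0.61 and -1.61 ± 0.52 and were not called (adjusted p = 0.24 and 0.15). All of these contrasts share the 20 week arrays.

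**Figure D3:**
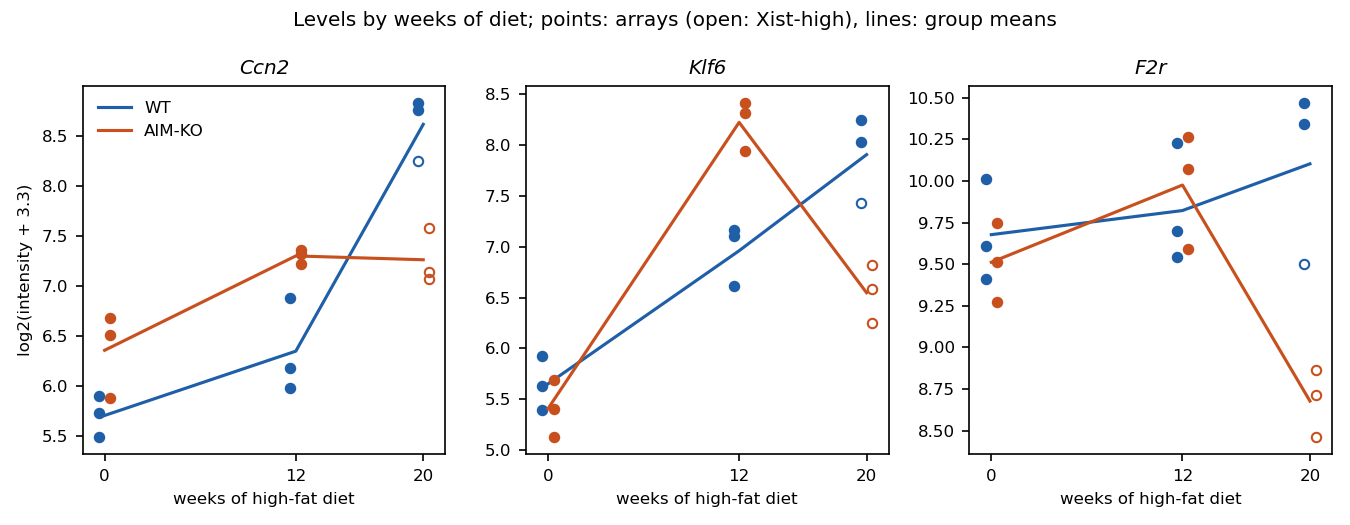
Log2(intensity + 3.3) of Ccn2, Klf6 and F2r against weeks of high-fat diet (0 is chow), with WT in blue and AIM-KO in orange; points are arrays, open points the Xist-high ones, and lines join group means. Klf6 peaks at 12 weeks in AIM-KO and is highest at 20 weeks in WT, Ccn2 rises from 12 to 20 weeks in WT (4.82-fold), and F2r is lowest in AIM-KO at 20 weeks.

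The order of group means, described without a test, was WT at 20 weeks first for Ccn1, Ccn2, F2r, Egr1 and Atf3, and AIM-KO at 12 weeks first for Klf6 and Amotl2. For Ccn1, Egr1 and Atf3 that first place rests on WT 20 weeks replicate 2: without it their WT means were 105.35, 294.65 and 60.6, below the 105.77, 457.77 and 76.2 of AIM-KO at 12 weeks. For Ccn2 the mean ± SD was 394 ± 81.3 (n = 3) in WT at 20 weeks, then 154 ± 7.86 and 152 ± 31.4 in AIM-KO at 12 and 20 weeks, which overlapped. For Klf6 it was 299 ± 50.6 in AIM-KO at 12 weeks and 243 ± 67.1 in WT at 20 weeks, which overlapped, and 123 ± 24.7 in WT at 12 weeks, which lay apart from both. F2r in AIM-KO at 20 weeks (409 ± 57.0) was the 1 group of F2r that lay apart from its neighbour in the order.

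Other YAP/TAZ target genes were called at 5.26% and 31.6% in WT and 21.1% and 21.1% in AIM-KO at 12 and 20 weeks, against 5.14%, 14.5%, 18.1% and 6.96% of all genes, so that both 12 week shares lay near those of all genes. Of 21 listed, 19 were tested, and the list, like those that follow, was drawn up with earlier results of these data known. In WT, 1 was higher at 12 weeks and 6 at 20 weeks; in AIM-KO, 4 were higher at each time; none was lower against chow. The matrix gene Ccdc80 rose by 1.91 ± 0.15 in WT at 20 weeks (adjusted p = 3e-07), Nt5e, the ectonucleotidase CD73, by 1.70 ± 0.40 (adjusted p = 0.0077), Rbms3 by 1.49 ± 0.26 (adjusted p = 0.00067) and Igfbp3, which binds insulin-like growth factors, by 1.14 ± 0.28 (adjusted p = 0.009). In AIM-KO, Nt5e rose by 2.16 ± 0.40 at 12 weeks and 3.04 ± 0.40 at 20 weeks, and Axl, a receptor tyrosine kinase, by 1.41 ± 0.21 and 0.78 ± 0.21 (adjusted p at most 0.031). The median change of the 19 was 0.38 in WT at 20 weeks and 0.46 in AIM-KO at 12 weeks, and it was 0.28 and 0.31 in the other 2 diet comparisons. With the Xist term, 1 of the 19 was called in AIM-KO at 20 weeks in place of 4. Nt5e measured 471.7 on the Xist-high WT array, 313.2 to 465.5 on the Xist-high AIM-KO arrays and at most 222.6 on every other array.

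Crim1, a membrane protein that binds BMPs, and Ccdc80 shared the called difference in the step from 12 to 20 weeks, at -1.08 ± 0.25 (adjusted p = 0.04) and -0.88 ± 0.21 (adjusted p = 0.049). Neither was called with the Xist term (adjusted p = 0.46 and 0.45), nor was either called with the actin term.

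Genes of the Hippo pathway itself were called at 6.25% and 12.5% in WT and 25% and 6.25% in AIM-KO at 12 and 20 weeks, near the 5.14%, 14.5%, 18.1% and 6.96% of all genes. Of 20 listed, 16 were tested, and 1 and 2 were higher in WT at 12 and 20 weeks; in AIM-KO, 3 were higher and 1 lower at 12 weeks and 1 was lower at 20 weeks. Wwtr1, which encodes TAZ, rose by 0.62 ± 0.16 and 0.57 ± 0.16 in WT (adjusted p = 0.025 and 0.02) and by 0.95 ± 0.16 in AIM-KO at 12 weeks (adjusted p = 0.00041). Tead1, the DNA-binding partner, rose by 0.74 ± 0.23 in WT at 20 weeks (adjusted p = 0.036) and by 0.80 ± 0.23 in AIM-KO at 12 weeks (adjusted p = 0.021). Wwtr1 then fell by 0.61 ± 0.16 from 12 to 20 weeks in AIM-KO (adjusted p = 0.041), a call lost with the Xist term. Mob1b, a cofactor of the LATS kinases, fell by 0.55 ± 0.13 in AIM-KO at 12 weeks (adjusted p = 0.0048) and by 0.43 ± 0.13 at 20 weeks (adjusted p = 0.046). Over the 16 the median change ran from -0.10 in WT at 12 weeks to 0.21 in AIM-KO at 12 weeks.

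Immediate-early genes, the class of Egr1, were all tested (23 of 23), and 3 rose in WT at 12 weeks, 10 in WT at 20 weeks, 9 in AIM-KO at 12 weeks and 1 in AIM-KO at 20 weeks. In WT at 20 weeks the AP-1 gene Fos rose by 3.74 ± 0.83 (adjusted p = 0.0051), Btg2, an antiproliferative gene, by 2.15 ± 0.45 (adjusted p = 0.0032), Jun by 2.11 ± 0.50 (adjusted p = 0.008) and Egr3 by 1.90 ± 0.40 (adjusted p = 0.0036). In AIM-KO at 12 weeks Jun rose by 1.87 ± 0.50 (adjusted p = 0.014), Fosl2 by 1.81 ± 0.28 (adjusted p = 0.00022), Egr3 by 1.78 ± 0.40 (adjusted p = 0.0045) and Klf10 by 1.65 ± 0.28 (adjusted p = 5e-04). Over the 23 the median change was 0.16 and 0.87 in WT and 0.75 and 0.43 in AIM-KO at 12 and 20 weeks, against at most 0.04 over all genes tested. Fosl2 was the 1 called at 20 weeks in AIM-KO (1.28 ± 0.28, adjusted p = 0.0086). These are shares of 13% and 43.5% in WT and 39.1% and 4.35% in AIM-KO at 12 and 20 weeks, against 5.14%, 14.5%, 18.1% and 6.96% of all genes. With the Xist or the actin term, 6 or 5 were called in WT at 12 weeks and 2 or 4 in AIM-KO at 20 weeks. None of the 23 was called in limma for a difference of the 20 week diet effect between genotypes, where 0% of all genes were called. An unadjusted p under 0.05 was found there for 5 of the 23 and for 1500 of the 14694 genes tested. With the Xist term 1 of the 23 was called for it, where 2 of all genes were. Without WT 20 weeks replicate 2, 9 of the 23 were called in WT at 20 weeks in place of 10. Fos then rose by 2.46, Jun by 1.44 and Btg2 by 1.36 (adjusted p = 0.016, 0.035 and 0.0034).

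That replicate stood apart across the class. Fos measured 74.6, 1732.6 and 189.6 on the WT 20 week arrays, Jun 277.1, 1449.2 and 473.6, and Btg2 166.4, 1072.2 and 250.6. Replicate 2 was the highest of its group for 17 of the 23 immediate-early genes and for 5 of the 9 genes of the set (Ccn1, Amotl2, Ankrd1, Egr1 and Atf3), while Ccn2, Klf6, F2r and Sox9 were not highest there. The 3 AIM-KO arrays at 20 weeks, also Xist-high, held Fos at 156.2 to 190.9 and Egr1 at 355.5 to 403.9.

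**Figure D4:**
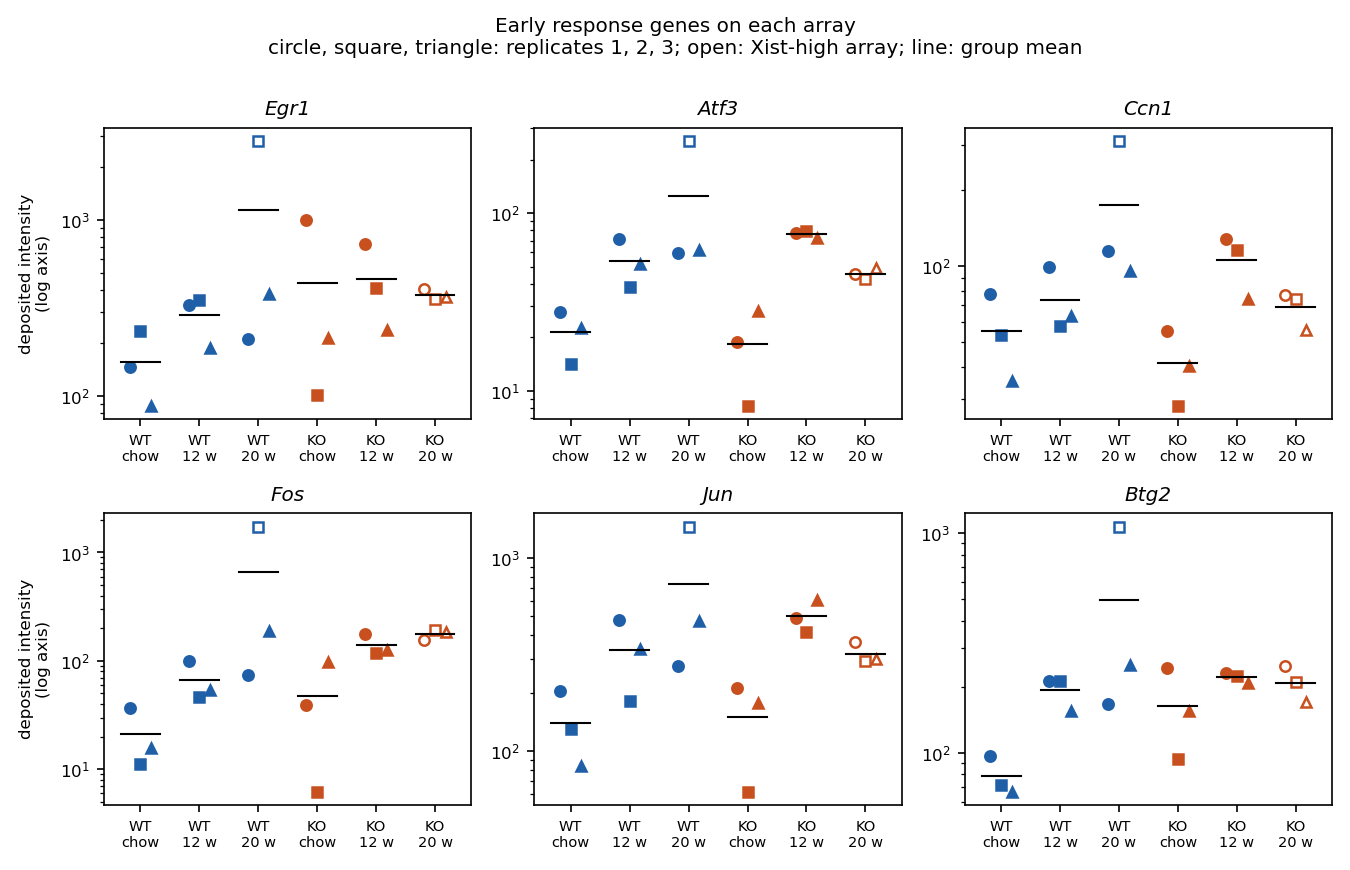
Deposited intensity (log axis) of Egr1, Atf3, Ccn1, Fos, Jun and Btg2 on the 18 arrays by group, with replicates 1, 2 and 3 as circles, squares and triangles, Xist-high arrays open, and group means as lines. WT 20 weeks replicate 2 is the highest array of the series for all 6 genes, with Egr1 at 2812.2 and Fos at 1732.6.

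Of the 12 stress response partners listed for Atf3, 2 and 3 rose in WT at 12 and 20 weeks, and 3 rose at each time in AIM-KO, with 1 lower at 12 weeks. Called in either direction were 16.7% and 25% in WT and 33.3% and 25% in AIM-KO, against 5.14%, 14.5%, 18.1% and 6.96% of all genes, and with the Xist term 1 in place of 3 was called in AIM-KO at 20 weeks. Vldlr, a lipoprotein receptor, rose by 1.43 ± 0.17 and 2.28 ± 0.17 in WT and by 2.60 ± 0.17 and 3.21 ± 0.17 in AIM-KO. Fgf21, a stress-induced liver hormone, rose by 1.71 ± 0.24 and 1.57 ± 0.24 in WT and by 2.09 ± 0.24 and 1.91 ± 0.24 in AIM-KO (adjusted p at most 0.00028 for both genes). Atf5 rose in AIM-KO at both times (1.06 ± 0.28 and 0.99 ± 0.28, adjusted p = 0.012 and 0.038), and Atf4, the transcription factor upstream of Atf3 in the amino acid response, fell by 0.52 ± 0.18 in AIM-KO at 12 weeks (adjusted p = 0.046). The median change of the 12 was 0.21 and 0.31 in WT and 0.33 and -0.13 in AIM-KO at 12 and 20 weeks.

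Ductular and progenitor markers, the class of Sox9, gave 1 of 11 tested (16 listed) higher in WT at 12 weeks, 4 in WT at 20 weeks and 3 at each time in AIM-KO. These are shares of 9.09% and 36.4% in WT and 27.3% and 27.3% in AIM-KO, against 5.14%, 14.5%, 18.1% and 6.96% of all genes; with the Xist term the count in AIM-KO at 20 weeks was 1, and with the actin term that in WT at 12 weeks was 0 and that in AIM-KO at 12 weeks 5. Sox4, a relative of Sox9, rose by 3.11 ± 0.38 in WT at 20 weeks (adjusted p = 3.1e-05) and by 2.63 ± 0.38 in AIM-KO at 12 weeks (adjusted p = 0.00013). The surface protein genes Cd24a and Prom1 rose by 2.47 ± 0.40 and 2.98 ± 0.63 in WT at 20 weeks (adjusted p = 0.00038 and 0.0037). Prom1 was near background on WT chow, at 0.5, 10.7 and 0.5. It measured 95.4 on the Xist-high WT array, 64.1 to 89.8 on the Xist-high AIM-KO arrays and at most 51.6 on every other array. Sox4 and the keratin gene Krt8 differed in the step from 12 to 20 weeks (-2.82 ± 0.54 and -1.40 ± 0.33, adjusted p = 0.016 and 0.043), neither of them with the Xist term (adjusted p = 0.27 and 0.56). With the actin term 1 gene of the list was called for that difference. Over the 11 the median change was 0.04 and 0.83 in WT and 1.08 and 0.41 in AIM-KO at 12 and 20 weeks. The 6 cholangiocyte markers on the array summed to 25.5 to 90.9 on the 18 arrays, none of the 4 tested was called against chow, and Krt7 and Krt19 stayed at or below 22.9. Krt8 and Krt18, also counted in the list of 16, measured 1224.5 to 4230.6 and 1150 to 3464.9 on the 18 arrays. The list thus joins genes of very unlike level, and which cells carried its called changes was not tested.

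Of the CCN and TGF-beta partners (13 listed, 11 tested), none was called in WT by limma, against 5.14% and 14.5% of all genes at 12 and 20 weeks. An unadjusted p under 0.05 was found in WT for 0 and 3 of the 11, and for 2859 and 4075 of the 14694 genes tested. In AIM-KO 2 were higher at each time, a share of 18.2% against 18.1% of all genes at 12 weeks and 6.96% at 20 weeks. Over the 11 in AIM-KO the median change was 0.29 at 12 weeks and 0.0028 at 20 weeks. Ccn5 rose by 1.36 ± 0.41 and 1.62 ± 0.41 (adjusted p = 0.028 and 0.023), and Thbs1, which activates latent TGF-beta, by 1.29 ± 0.37 at 20 weeks (adjusted p = 0.039). Tgfbr2, the type II receptor, rose by 0.58 ± 0.19 in AIM-KO at 12 weeks and fell by 1.04 ± 0.19 to 20 weeks (adjusted p = 0.038 and 0.0062), and its step differed between genotypes by -1.09 ± 0.26 (adjusted p = 0.048). With the Xist term neither that step nor any gene of this list in AIM-KO at 20 weeks was called. The difference in the step was also not called with the actin term.

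Of the 8 tested genes around F2r (10 listed), the protein C receptor gene Procr rose by 1.31 ± 0.33 in WT at 20 weeks and 1.40 ± 0.33 in AIM-KO at 12 weeks (adjusted p = 0.011 and 0.0058). F2, prothrombin, the hepatocyte precursor of the protease that cleaves F2r, fell by 0.25 ± 0.08 and 0.32 ± 0.08 in those comparisons (adjusted p = 0.047 and 0.01). In WT both calls were lost with the actin term and on leaving out single arrays, chow replicate 3 or 20 weeks replicate 3 for Procr, and chow replicate 2 or 3 or 20 weeks replicate 1 or 3 for F2.

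Markers of stellate cells and fibroblasts were higher against chow in the groups where Klf6 was. Of the 12, 5 were higher in WT at 12 weeks, 10 in WT at 20 weeks, 9 in AIM-KO at 12 weeks and 7 in AIM-KO at 20 weeks. These are shares of 41.7%, 83.3%, 75% and 58.3%, against 5.14%, 14.5%, 18.1% and 6.96% of all genes, and with the Xist term 4 were called in AIM-KO at 20 weeks. From 12 to 20 weeks none of the 12 was called in WT by limma, where only 0.0204% of all genes were called. An unadjusted p under 0.05 was found there for 8 of the 12 (median change 0.52) and for 1190 of the 14694 genes tested. Ccn2 rose by 2.27 in that comparison. In AIM-KO 1 of the 12 was lower (median -0.12), where 3.44% of all genes were called and Klf6 fell by 1.68. Over the 12 the median change was 0.72 and 1.35 in WT and 1.23 and 0.76 in AIM-KO against chow. Their summed intensity was 2195.6 to 2572.3 on WT chow, 3388.7 to 4746.6 at 12 weeks and 4792.2 to 6286.2 at 20 weeks, and 2044.3 to 2232.8, 3521.8 to 4245.5 and 3141.2 to 3983.7 in AIM-KO. No marker of the 12 averaged 0 in a group; Lrat, the vitamin A enzyme of stellate cells, averaged 119 on WT chow and 230 in WT at 20 weeks. Macrophage markers were higher in 1 of 12 and 6 of 12 in WT and 6 of 12 and 0 of 12 in AIM-KO at 12 and 20 weeks, and hepatocyte markers were lower in 1 of 9, 2 of 9, 6 of 9 and 0 of 9. The part of these cells in the values of the 9 genes was not tested.

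**Figure D5:**
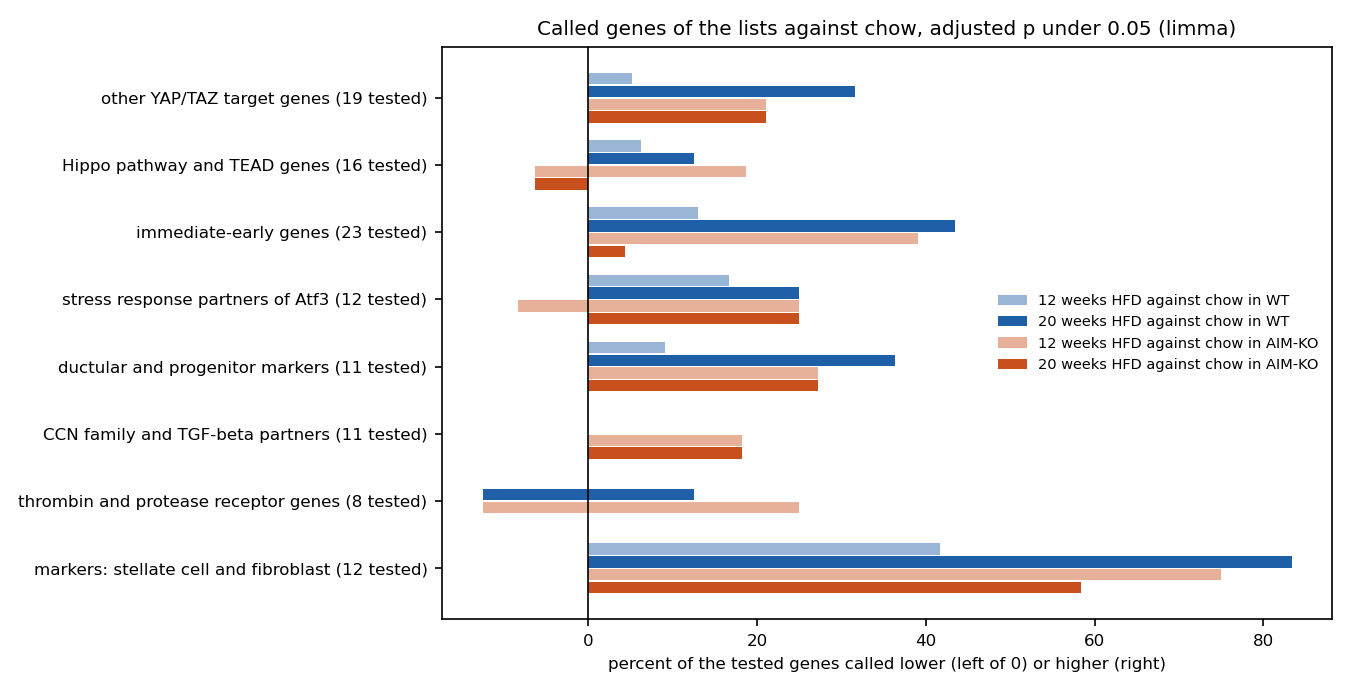
Percent of the tested genes of each list that limma called higher (right of 0) or lower (left of 0) against chow of the same genotype, with pale bars for 12 weeks, full bars for 20 weeks, blue for WT and orange for AIM-KO. Stellate cell and fibroblast markers have the longest bars of the lists drawn (10 of 12 in WT at 20 weeks), and the shares of all genes called were 5.14% and 14.5% in WT and 18.1% and 6.96% in AIM-KO at 12 and 20 weeks.

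Among all genes tested, those most like each member over the 18 arrays were ranked by the root mean square difference of log2 levels, each gene's mean taken off. For Ccn2 they were Gpm6a (0.50), Acta2, the smooth muscle actin of activated stellate cells (0.51), and Ntrk2 (0.52), against an SD of Ccn2 itself of 1.001. For Klf6 (SD 1.11) they were Tmsb10 (0.33), Anxa5 (0.35) and Fabp4 (0.36). Atf3 (SD 1.01) was nearest to Jun (0.35), the monocyte marker Cd14 (0.43) and Ier3 (0.44). Egr1 (SD 1.17, against 1.15 within groups) was nearest to Btg2 (0.54), Jun (0.79) and Krt19 (0.79). Ccn1 (SD 0.76) was nearest to P3h3 (0.35), Cd9 (0.39) and Itga6 (0.39), and F2r (SD 0.56) to Tc2n (0.30), Rps6ka3 (0.31) and Gfpt1 (0.32). Egr1, Amotl2, Ankrd1 and Sox9 varied little beyond the spread within groups, so likeness to them is mostly likeness within groups; the genes nearest to the last 3 were Kifbp, Emp3 and 2900026A02Rik. The points share their arrays, so these values describe likeness on these 18 arrays.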

How the data were processed

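Total RNA of 18 liver samples (6 groups of 3) was hybridised to 1-colour arrays. The deposited values are intensities on a linear scale that the authors made with MAS5, per the submitters' processing notes (no version stated there); each array's 2% trimmed mean lay at 100, and 42 values equal 0. No scanner files were used here, and depth has no counterpart on arrays: the number of arrays limits the precision. Each value was taken as log2(intensity + 3.3), 3.3 being the 20th percentile over the whole table. Probe sets with 1 gene symbol were kept (34945 of 45101), and 34741 symbols were updated through their gene identifiers to GRCm38.p6 RefSeq names. A gene had to exceed the 40th percentile of an array on 3 or more of them, and was represented by its brightest probe set; 14694 passed. limma 3.58.1 in R 4.3.3 fitted 6 group means over the 18 arrays with a variance trend (18.2 degrees of freedom); p-values are 2-sided, adjusted over all 14694 genes, and called under 0.05. Intervals are 95%. The fit was tested on simulated data with known changes. The genes of the set and all gene lists were chosen with earlier results of these data known. Named genes are the 9 of the set, up to 4 called genes of a list with the largest changes in a comparison, defining cell markers, and the 3 genes most like each member. Alternatives changed the pseudocount, the normalization, the filter, the probe set rule, the variance model, the array weights, the arrays fitted, a replicate block, and terms for Xist-high arrays and the actin ratio; counts over lists under these settings were added after seeing the data.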

Additional observations from a re-analysis of the deposited data

Results flagged for a closer look

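The step from 12 to 20 weeks of HFD differed between genotypes, AIM-KO minus WT on the log2 scale, for 3 genes of the set in limma's test of the difference itself. It was -2.31 ± 0.33 for Ccn2 (adjusted p = 0.0037), -2.62 ± 0.32 for Klf6 (adjusted p = 0.0013) and -1.58 ± 0.34 for F2r (adjusted p = 0.029).

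The same test called 5 genes of the lists. The difference was -1.08 ± 0.25 for Crim1 (adjusted p = 0.04), -0.88 ± 0.21 for Ccdc80 (adjusted p = 0.049), -1.40 ± 0.33 for Krt8 (adjusted p = 0.043), -2.82 ± 0.54 for Sox4 (adjusted p = 0.016) and -1.09 ± 0.26 for Tgfbr2 (adjusted p = 0.048). With the Xist term, Klf6 alone of these 8 genes was called. With the actin term F2r, Crim1, Ccdc80 and Tgfbr2 were not called.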

How the results depend on the processing

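The 22 called values of the 9 genes gave 264 values under other settings, of which 228 kept direction and call, 35 kept direction and lost the call, and 1 reversed: F2r in AIM-KO at 20 weeks was 0.073 with the Xist term. Among list genes, Mob1b in AIM-KO at 20 weeks was 0.089 with probe sets averaged, and Krt8 from 12 to 20 weeks in AIM-KO was 0.17 with the Xist term. The count of genes called between genotypes at 12 weeks (1) was 0 without the filter, with probe sets averaged, without the trend and with only the groups compared, and 2 with array weights. At 20 weeks (3) it was 0 with probe sets averaged, without the trend and with the Xist or actin term, and 1 with only the groups compared. In AIM-KO at 20 weeks (3) it was 1 without the trend or with the Xist term and 5 with array weights; in WT at 12 weeks (1) it was 2 with array weights, the Xist term or the actin term. For the fall from 12 to 20 weeks in AIM-KO (2) it was 0 with the Xist term. For the difference of the diet effect (0) it was 1 at 12 weeks and 2 at 20 weeks with array weights. The cause was not tested in any of these. Leaving out 1 array at a time gave 3 to 5 in WT and 1 to 3 in AIM-KO at 20 weeks, 1 to 1 in WT and 2 to 4 in AIM-KO at 12 weeks, 1 to 1 and 1 to 2 for the later step in WT and AIM-KO, 0 to 0, 0 to 1 and 0 to 3 between genotypes on chow, at 12 and at 20 weeks, 0 to 0 and 0 to 3 for the difference of the diet effect, and 2 to 3 for the step. Over all genes, calls ranged from 335 to 1317 in WT and 1710 to 4259 in AIM-KO at 12 weeks, and from 1373 to 3032 and 197 to 2017 at 20 weeks; from 3 to 104 (11 as reported) and 2 to 948 (23) between genotypes at 12 and 20 weeks; from 1 to 34 (3) and 5 to 1656 (505) from 12 to 20 weeks in WT and AIM-KO; from 0 to 23 (1) and 0 to 331 (0) for the difference of the diet effect at 12 and 20 weeks; and from 15 to 806 (204) for the step.

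With the replicate number as a block, the count for the difference of the diet effect at 20 weeks was 1 (0 without it). Over all genes, the block gave 63 calls between genotypes at 20 weeks (23 without it). Deviations of same-numbered arrays correlated from -0.087 to 0.23, over 0.1 in 5 of 45 pairs. The highest were for replicate 3: 0.23 between WT and AIM-KO at 20 weeks, and 0.21 and 0.16 between AIM-KO chow and AIM-KO or WT at 20 weeks. What same-numbered arrays share was not tested further. The stricter filter dropped Ankrd1.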
